A study of Mus musculus with 16 samples.

Results

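This account describes 7 secreted cytokines in mouse macrophages: Il6, Lif, Osm and Il11 of the interleukin-6 family, and the colony-stimulating factors Csf1, Csf2 and Csf3. They were picked by gene symbol from 19937 genes that each had 1 probe set. Each of the 7 had a single probe set on the array, so the choice of the brightest probe set per gene did not affect them. RNA came from bone-marrow-derived macrophages, which are grown in culture from marrow precursors. Every sample had the 129sv genetic background. The WT group was wild type and unstimulated, WTSTIM was wild type and stimulated with LPS, KO was NFAT5 knockout and unstimulated, and KOSTIM was NFAT5 knockout and stimulated with LPS. Each group had 4 arrays with 1 RNA sample each. The sources used here do not give the dose and length of the LPS treatment, the age of the mice, the exons deleted or any Cre driver. They also do not say if the 4 samples of a group were separate mice or cultures, so the p-values reflect the spread of these samples alone, and much of that spread may be technical.

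Cytokines of the interleukin-6 family signal through receptors that share the chain gp130, the product of Il6st, and pass the signal on through JAK kinases and the transcription factor STAT3. Il6 drives fever and the acute phase response, and activated macrophages are a classic source of it. The colony-stimulating factors keep myeloid cells alive and direct their growth: Csf1 (M-CSF) sustains macrophages, Csf2 (GM-CSF) acts on granulocytes and macrophages, and Csf3 (G-CSF) on neutrophils. LPS, a bacterial cell wall component, is sensed by Toll-like receptor 4 and switches on NF-kB and AP-1, which act at the promoters of many cytokine genes. NFAT5 is a transcription factor of the Rel family best known from the response to hypertonic stress.

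Values are log2 levels from robust multi-array average (RMA), so a difference of 1 is a factor of 2, and levels of different genes are not on one scale because each probe set binds differently. Array medians lay between 6.76 and 6.86. The mean of 10 measured macrophage markers lay between 12.08 and 12.58 in all arrays, that of 9 neutrophil markers between 5.90 and 6.22, that of 9 stromal markers between 6.10 and 6.85, that of 7 dendritic cell markers between 6.37 and 7.36, and that of 8 lymphocyte and mast cell markers between 5.16 and 5.54. Nfat5 averaged 9.39 in WT, 10.07 in WTSTIM, 9.04 in KO and 9.09 in KOSTIM. It was lower in KO cells by -0.98 with LPS (limma, adjusted p = 0.00169), while without LPS the difference of -0.36 was not called (adjusted p = 0.602). Xist, the RNA of the inactive X chromosome, exceeded the Y-linked Kdm5d in 4 of 4 WT, 4 of 4 WTSTIM, 1 of 4 KO and 1 of 4 KOSTIM arrays. Each KO group thus held arrays of both sexes, and so of more than 1 mouse. Genotype was therefore partly mixed with sex. Values that allow for it stand beside the genotype comparisons with LPS of Il6, Osm, Csf2, Csf3 and Csf1. They are not given for Lif and Il11, which were not called with a term for sex either. No wild-type array had Kdm5d above Xist, so a term for sex rests on comparing arrays within the KO groups. There only 1 array per group had Xist above Kdm5d, and the values with a sex term lean on it.

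Promoter sequence was at hand for 5 of the 7 genes, but not for Osm and Csf3. It came in 6 windows of 250 bases ending at an annotated start (RefSeq, GRCm38.p6). Those of Il6, Lif and Csf1 are shown because these genes rose with LPS in wild-type cells while with LPS Il6 was lower in KO cells and Lif and Csf1 were not called between genotypes, and the second window of Il11 because Il11 was not called with LPS. They lie at chr5:30012864-30013113 (plus strand), chr11:4257318-4257567 (plus), chr3:107760470-107760719 (minus) and chr7:4778142-4778391 (minus), and read 5′ to 3′ as follows.
Il6: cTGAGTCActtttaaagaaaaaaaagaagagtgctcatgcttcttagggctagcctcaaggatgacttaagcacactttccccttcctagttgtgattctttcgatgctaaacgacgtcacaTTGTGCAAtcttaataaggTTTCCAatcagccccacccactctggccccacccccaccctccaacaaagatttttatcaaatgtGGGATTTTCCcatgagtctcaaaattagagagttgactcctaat
Lif: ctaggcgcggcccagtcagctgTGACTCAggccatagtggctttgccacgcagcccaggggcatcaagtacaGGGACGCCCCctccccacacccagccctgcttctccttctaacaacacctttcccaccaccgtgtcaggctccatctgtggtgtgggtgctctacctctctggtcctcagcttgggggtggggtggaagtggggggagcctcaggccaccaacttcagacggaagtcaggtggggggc
Csf1: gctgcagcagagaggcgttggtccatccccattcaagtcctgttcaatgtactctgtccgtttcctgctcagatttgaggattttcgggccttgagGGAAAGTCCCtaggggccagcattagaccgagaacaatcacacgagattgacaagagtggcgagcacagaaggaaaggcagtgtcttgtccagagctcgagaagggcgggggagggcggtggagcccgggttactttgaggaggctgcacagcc
Il11: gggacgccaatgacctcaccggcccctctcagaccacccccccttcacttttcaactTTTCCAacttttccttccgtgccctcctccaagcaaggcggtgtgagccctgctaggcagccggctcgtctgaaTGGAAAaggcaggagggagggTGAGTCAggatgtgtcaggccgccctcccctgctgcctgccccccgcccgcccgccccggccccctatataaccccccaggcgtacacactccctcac
Capitals mark matches, on either strand, to 4 motifs: the NF-kB consensus, the AP-1 motif TGAGTCA, the C/EBP motif TTGCNNAA and TGGAAA, the core of the NFAT5 consensus. No matches overlapped in these windows. In Il6 the NF-kB match began 44 bases before the start, the NFAT5 core (as TTTCCA) 109, the C/EBP match 128 and the AP-1 match 249. In Lif the NF-kB match began 178 bases and the AP-1 match 228 bases before the start. Csf1 held 1 NF-kB match, 154 bases before the start. The Il11 window held TGGAAA on either strand, 193 and 119 bases before the start, and an AP-1 match at 98, while its other window had no match. The window of Csf2 is not shown, because it was unclear whether its annotated start is the one macrophages use. It held TGGAAA 201 bases and a C/EBP match 145 bases before that start, and no NF-kB or AP-1 match. Over all 32851 mouse promoter windows of this length, 7.25% held the NF-kB consensus, 4.46% the AP-1 motif, 9.56% the C/EBP motif and 18.6% TGGAAA. Each motif thus occurs in many other windows, TGGAAA the most often and the AP-1 motif the least. A match says only that the letters are there.

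In wild-type macrophages LPS raised 6 of the 7 genes, all but Il11, whereas in KO macrophages it raised Il6 and Csf1. Without LPS the genotypes did not differ in any of the 7 by the test. With LPS, Il6, Osm, Csf2 and Csf3 were lower in KO cells by factors of 2.37 to 2.93, and Csf1 was not. In whole cultures, fewer cells making a cytokine and less of its RNA per cell cannot be told apart. These counts come from limma with Benjamini-Hochberg adjustment over all genes and a threshold of 0.05. With LPS in wild-type cells 6 of 7 were called, all higher, where 30.8% of all genes were called in either direction (2786 higher and 3346 lower). In KO cells 2 of 7 were called, both higher, where 24.7% of all genes were called in either direction (2394 higher and 2525 lower). For KO against wild type without LPS 0 of 7 were called (0 of 7 also at an unadjusted p under 0.05), where 0.140% of all genes were higher and 0.863% lower. With LPS 4 of 7 were called lower in KO cells and 0 higher, where 1.26% of all genes were lower and 1.80% higher. Among the 675 genes that LPS raised at least 2-fold on average, 126 were called lower in KO cells and 9 higher. Lower calls, but not higher ones, were thus more frequent there than over all genes. For the difference in LPS response between genotypes 4 of 7 were called, with a smaller rise in KO cells, where the LPS difference was lower in KO cells for 0.301% of all genes and higher for 0.988%, the latter including genes that fell less in KO cells. That count was 2 when WT array 2, KOSTIM array 1 or KOSTIM array 2 was left out. The median difference over the 7 genes was 1.65 for LPS in wild type, 0.37 for LPS in KO, 0.07 between genotypes without LPS, -1.24 between genotypes with LPS and -1.21 for the difference in response, against medians over all genes of 0.06, 0.01, 0.00, -0.01 and -0.02. Comparisons that share arrays, such as the last 2, are not independent of each other.

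**Figure D1:**
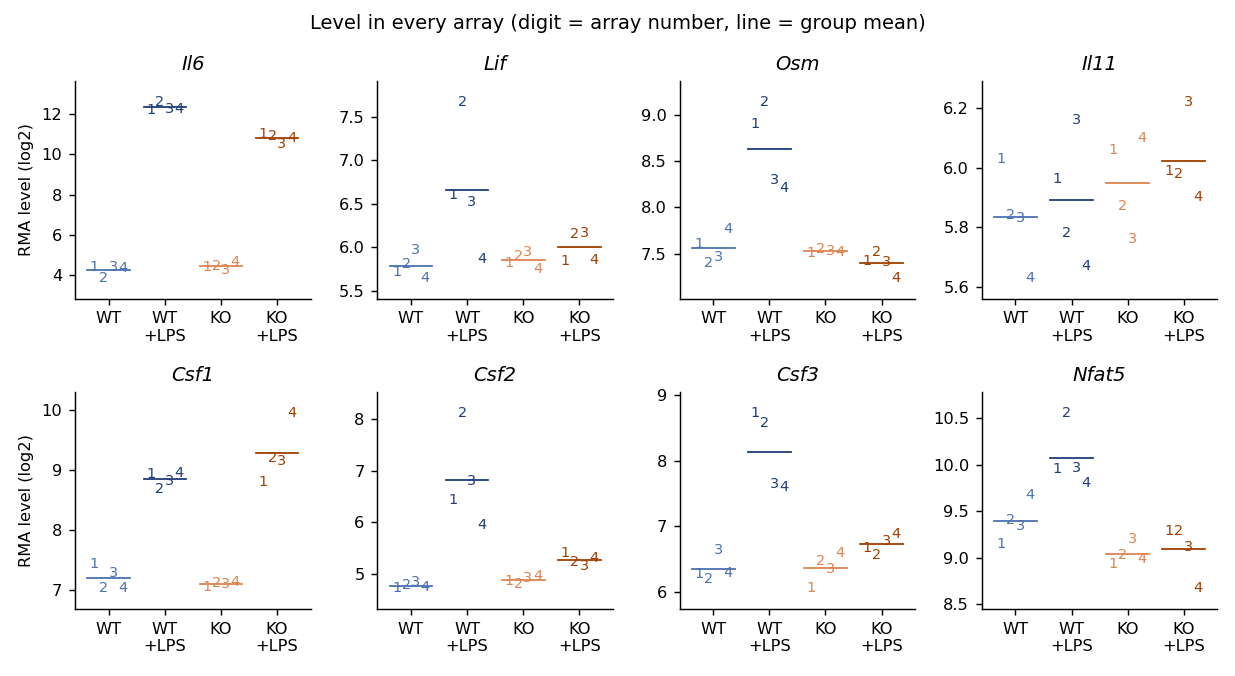
RMA level (log2) of each of the 7 cytokine genes and of Nfat5 in all 16 arrays. Each digit is 1 array, placed at its level and named by its replicate number, and each line is the mean of 4 arrays. Il6 in KOSTIM lies between 10.53 and 11.01, below the WTSTIM range of 12.20 to 12.61, while Csf1 in KOSTIM reaches 9.95 and overlaps WTSTIM.

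Il6 was close to the bottom of the scale without LPS. In WT arrays 1 to 4 its level was 4.37, 3.86, 4.39 and 4.32, and in KO arrays 4.37, 4.42, 4.23 and 4.65. In WTSTIM it was 12.20, 12.61, 12.29 and 12.28, and in KOSTIM 11.01, 10.90, 10.53 and 10.84. Both stimulated groups lay far above both unstimulated ones, and every KOSTIM array lay below every WTSTIM array. The group means were 4.24 ± 0.25 (SD, n = 4), 4.42 ± 0.17, 12.35 ± 0.18 and 10.82 ± 0.21 in the order WT, KO, WTSTIM, KOSTIM. The rise of 8.11 in wild-type cells and that of 6.40 (95% interval 6.12 to 6.69) in KO cells were each the largest among the 19937 genes. RMA compresses changes of dim genes, so the factors these rises stand for are not exact.

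The genotypes differed in Il6 with LPS. Without LPS KO cells differed from wild type by 0.18 (limma, adjusted p = 0.836), and with LPS by -1.53 (95% interval -1.81 to -1.24; adjusted p = 4.54e-06). The rise with LPS was smaller in KO cells by a factor of 3.27 (log2 difference -1.71, interval -2.11 to -1.30; limma, adjusted p = 0.000211). Between arrays of the same number KOSTIM differed from WTSTIM by -1.2, -1.71, -1.76 and -1.43, lower in 4 of 4. With a term for sex the difference was -1.40 (adjusted p = 0.000438), with sex term and replicate block also -1.40 (adjusted p = 0.00947), and in the 10 arrays with Xist above Kdm5d it was -1.50 (limma, adjusted p = 0.0149). In those arrays the difference in response, -1.92, was not called (adjusted p = 0.0995), with 1 array in each KO group.

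Osm encodes oncostatin M, a member of the family made by activated myeloid cells, and its response to LPS differed between the genotypes. Its levels were 7.60, 7.40, 7.46 and 7.77 in WT and 8.90, 9.14, 8.30 and 8.21 in WTSTIM. In KO they were 7.51, 7.55, 7.53 and 7.52, and in KOSTIM 7.42, 7.52, 7.41 and 7.24. The 4 WTSTIM arrays stood above all 12 others, which overlapped one another. LPS raised Osm by 1.08 (95% interval 0.75 to 1.41; limma, adjusted p = 2.48e-05) in wild type. In KO cells the difference was -0.13 (interval -0.46 to 0.20; adjusted p = 0.677).

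The LPS response of Osm differed between genotypes by -1.21 (interval -1.68 to -0.74; limma, adjusted p = 0.0131). With LPS the level in KO cells was lower by -1.24 (interval -1.57 to -0.91; limma, adjusted p = 0.000188; lower in 4 of 4 numbered pairs). The pairs split into larger gaps for numbers 1 and 2, at -1.48 and -1.62, and smaller ones for 3 and 4, at -0.89 and -0.97. The difference was -1.32 with a sex term (adjusted p = 0.00289) and -1.22 with sex term and replicate block (adjusted p = 0.0393). In arrays with Xist above Kdm5d it was -1.40 and missed the threshold (adjusted p = 0.0721), as did the difference in response there (-1.36, adjusted p = 0.47).

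Lif, leukaemia inhibitory factor, is the neighbour of Osm on mouse chromosome 11 and uses gp130 together with Lifr. Its levels were 5.71, 5.81, 5.97 and 5.65 in WT and 6.60, 7.67, 6.52 and 5.86 in WTSTIM. In KO they were 5.82, 5.90, 5.94 and 5.75, and in KOSTIM 5.84, 6.15, 6.16 and 5.85. WTSTIM array 2 was the highest and WTSTIM array 4 lay within the range of the other groups. LPS raised Lif by 0.88 in wild type (interval 0.38 to 1.38; limma, adjusted p = 0.0078; 0.54 and adjusted p = 0.0115 without WTSTIM array 2). In KO cells the LPS difference was 0.15 (interval -0.35 to 0.65; adjusted p = 0.766).

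For Lif the genotype difference with LPS, -0.66 (interval -1.16 to -0.16), missed the threshold over all genes (limma, adjusted p = 0.201), and so did the difference in response (-0.73, adjusted p = 0.469). The numbered pairs gave -0.76, -1.52, -0.36 and -0.01. The value was -0.93 (adjusted p = 0.0148) without WTSTIM array 4 and -0.33 (adjusted p = 0.551) without WTSTIM array 2. Whether the genotypes differed in Lif with LPS thus rested on single arrays.

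Il11, interleukin-11, is a gp130 cytokine better known from stromal and epithelial cells. Its levels were 6.03, 5.84, 5.83 and 5.63 in WT, 5.96, 5.78, 6.16 and 5.67 in WTSTIM, 6.06, 5.87, 5.76 and 6.10 in KO, and 5.99, 5.98, 6.22 and 5.90 in KOSTIM. All 4 groups overlapped. The LPS difference was 0.06 in wild type (interval -0.19 to 0.31; limma, adjusted p = 0.754) and 0.08 in KO (interval -0.17 to 0.33; adjusted p = 0.74). With LPS the genotypes differed by 0.13 (adjusted p = 0.88). The file holds no detection calls, so it is unknown whether this probe set measured Il11 RNA or background.

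Csf2 was low and even without LPS and rose to different heights in wild-type arrays. Its levels were 4.72, 4.78, 4.84 and 4.74 in WT and 6.43, 8.12, 6.79 and 5.94 in WTSTIM. In KO they were 4.87, 4.81, 4.92 and 4.96, and in KOSTIM 5.40, 5.23, 5.16 and 5.30. The 3 lower groups were tight (SD 0.06 to 0.10) while WTSTIM had an SD of 0.93, and no KOSTIM array reached the lowest WTSTIM array. LPS raised Csf2 by 2.05 in wild type (interval 1.46 to 2.64; limma, adjusted p = 1.25e-05), and all 4 WTSTIM arrays lay above all 4 WT arrays.

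In KO cells every KOSTIM array of Csf2 lay above every KO array (exact two-sided permutation p = 0.0286, the smallest that 4 against 4 can give). The same held for 12.4% of all genes. The mean difference was 0.38 (interval -0.21 to 0.97), and in the fit of all 16 arrays it was not called (limma, adjusted p = 0.424). With only the 8 KO arrays, whose spread is smaller, it was called (adjusted p = 0.00855), and likewise without WTSTIM array 2 (adjusted p = 0.04). A small rise in KO cells was thus seen or not seen depending on whose spread was used.

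With LPS, Csf2 was lower in KO than in wild-type cells by -1.55, a factor of 2.93 (interval -2.14 to -0.96; limma, adjusted p = 0.00388). The numbered pairs gave -1.03, -2.89, -1.63 and -0.65, lower in 4 of 4. Without WTSTIM array 2 the value was -1.12 (adjusted p = 0.000298). With only the 8 stimulated arrays the call missed the threshold (adjusted p = 0.0503). It held with a sex term (-1.50, adjusted p = 0.0381) but not with sex term and replicate block (-1.05, adjusted p = 0.295) or in arrays with Xist above Kdm5d (-1.52, adjusted p = 0.231). The difference in response, -1.67 (interval -2.51 to -0.83), was just past the threshold (limma, adjusted p = 0.0471). Leaving out any 1 array other than WTSTIM 1, 2 or 4 ended that call, in 13 of 16 cases, with adjusted p of 0.0661 to 0.0963, and leaving out WTSTIM 2 gave -1.24 (adjusted p = 0.00752).

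Csf3 behaved like Osm in that the WTSTIM arrays fell into a high and a lower pair. Its levels were 6.27, 6.20, 6.63 and 6.28 in WT and 8.73, 8.57, 7.64 and 7.60 in WTSTIM. In KO they were 6.05, 6.46, 6.35 and 6.59, and in KOSTIM 6.67, 6.56, 6.78 and 6.88. All WTSTIM arrays stood above all KOSTIM arrays, and KOSTIM overlapped KO. LPS raised Csf3 by 1.79 in wild type (interval 1.35 to 2.23; limma, adjusted p = 1.81e-06). In KO cells the difference was 0.37 (interval -0.08 to 0.81; adjusted p = 0.264).

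The level of Csf3 with LPS was lower in KO cells by -1.41, a factor of 2.66 (interval -1.86 to -0.97; limma, adjusted p = 0.000769). The numbered pairs gave -2.07, -2.01, -0.86 and -0.72, lower in 4 of 4. With a sex term it was -1.22 (adjusted p = 0.0209), with sex term and replicate block -0.92 and not called (adjusted p = 0.238), and in arrays with Xist above Kdm5d -1.25 and not called (adjusted p = 0.172). The response differed between genotypes by -1.43 (interval -2.05 to -0.80; limma, adjusted p = 0.0232). That call ended without WT array 2 (0.058), WTSTIM array 2 (0.0549), KOSTIM array 1 (0.0512) or KOSTIM array 2 (0.051), where the numbers in brackets are adjusted p.

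Csf1, the growth factor on which macrophages depend, rose with LPS in both genotypes. Its levels were 7.43, 7.02, 7.27 and 7.02 in WT and 8.93, 8.67, 8.82 and 8.94 in WTSTIM. In KO they were 7.05, 7.11, 7.10 and 7.13, and in KOSTIM 8.80, 9.20, 9.14 and 9.95. Both stimulated groups lay above both unstimulated ones and overlapped each other, with KOSTIM array 4 the highest. LPS raised Csf1 by 1.65 in wild type (interval 1.30 to 2.01; limma, adjusted p = 3.66e-07) and by 2.17 in KO (interval 1.81 to 2.53; limma, adjusted p = 1.51e-08).

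With LPS, Csf1 differed between genotypes by 0.43 (interval 0.07 to 0.79), which was not called (limma, adjusted p = 0.274). The numbered pairs gave -0.13, 0.53, 0.32 and 1.01. The difference was 0.21 (adjusted p = 0.621) without KOSTIM array 4, 0.79 (adjusted p = 0.0273) with a sex term and 1.11 (adjusted p = 0.0279) in arrays with Xist above Kdm5d, where KOSTIM array 4 was the only one of its group. The difference in response, 0.52 (interval 0.01 to 1.03), was not called (adjusted p = 0.475).

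**Figure D2:**
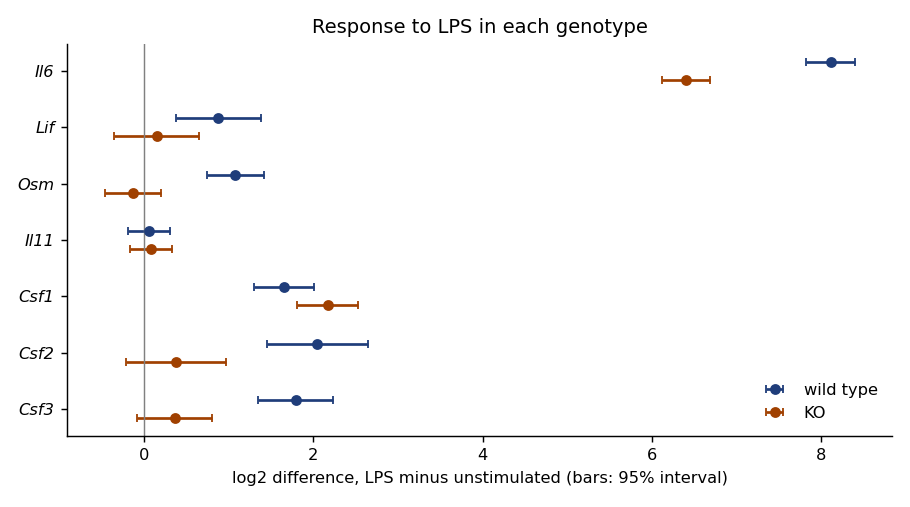
Difference between LPS and unstimulated arrays (log2) for each gene in wild-type and KO cells. Points are the differences of group means (n = 4 against 4) and bars their 95% intervals from limma. The intervals of Osm, Csf2 and Csf3 in KO cells include 0, those in wild-type cells do not, and Csf1 rose by 2.17 in KO against 1.65 in wild-type cells.

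**Figure D3:**
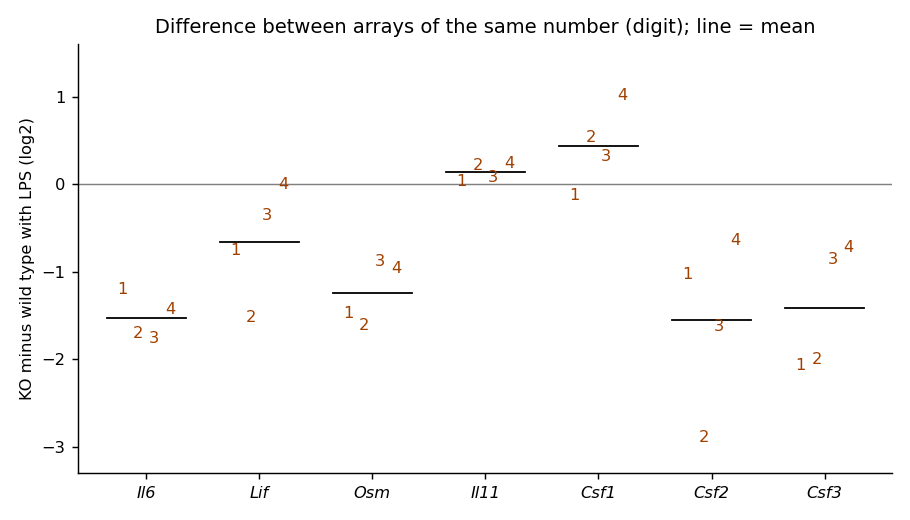
KO minus wild type with LPS (log2), between arrays of the same replicate number. Each digit is 1 pair and each line the mean of 4 pairs. Il6, Lif, Osm, Csf2 and Csf3 lie below 0 in 4 of 4 pairs, and the gaps of Osm and Csf3 are larger for numbers 1 and 2 than for 3 and 4.

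The order of the groups differed between genes. For Il6 and Csf2 the order from low to high was WT, KO, KOSTIM, WTSTIM, with an overlap only between WT and KO. For Csf3 it was the same order, with WT, KO and KOSTIM overlapping in neighbours and WTSTIM apart. For Osm the order was KOSTIM, KO, WT, WTSTIM, with WTSTIM apart. For Csf1 it was KO, WT, WTSTIM, KOSTIM, with a gap only between WT and WTSTIM. Where neighbours did not overlap, the exact two-sided permutation test over arrays gave p = 0.0286. Such gaps were also found in many other genes. With LPS, 16.2% of all genes rose without overlap in wild-type cells, and 12.4% did so in KO cells. Between genotypes with LPS, 3.6% of all genes were lower in KO cells without overlap. The cytokine genes that did so numbered 5, 3 and 4 in these comparisons. For Lif and Il11 all neighbouring groups overlapped.

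The position of these genes among the LPS-raised genes was then examined, since many such genes were lower in KOSTIM. LPS raised 675 genes at least 2-fold on average over both genotypes. Their median difference between KO and wild type with LPS was -0.21, with quartiles of -0.49 and 0.01, and 502 of the 675 were below 0. In that comparison 126 of the 675 were called lower in KO cells, Il6, Csf2 and Csf3 among them, and 9 were called higher. Il6, Csf2, Csf3 and Csf1 belonged to the 675, and Osm, Lif and Il11 did not. Csf2 and Csf3 entered through their wild-type rises of 2.05 and 1.79, since their differences in KO cells were 0.38 and 0.37, so their low place in this set follows in part from how they entered it. Of the 675 genes, 20 had a lower value than Csf2, 21 than Il6, 25 than Csf3, 37 than Osm and 119 than Lif, whereas 634 were lower than Csf1 and 40 higher.

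**Figure D4:**
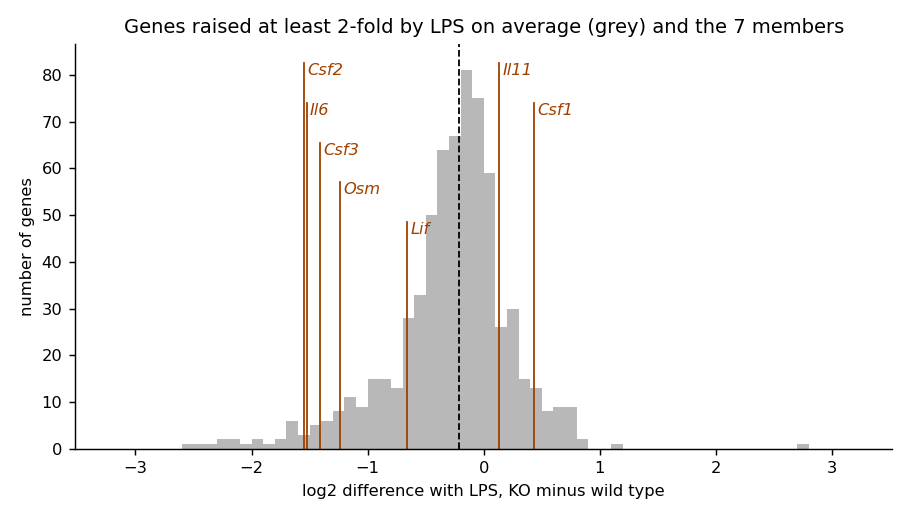
Number of genes (grey) by their difference between KO and wild type with LPS (log2), for the 675 genes that LPS raised at least 2-fold on average. Vertical lines mark the 7 cytokine genes, of which Osm, Lif and Il11 are not among the 675, and the dashed line marks the median of -0.21. Csf2, Il6, Csf3 and Osm lie between -1.55 and -1.24, and Csf1 lies at 0.43.

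Profiles over the 16 arrays were compared by Pearson's r, as a description. All of these r are shaped by the LPS difference and by shared arrays. Il6 was most like Zfp131 (r = 0.997), the chemokine gene Cxcl1 (0.995) and the cyclooxygenase gene Ptgs2 (0.995). Csf2 was most like the probe set named Mir146b (0.970), Cish (0.964), a feedback inhibitor of STAT5 signalling, and the nuclear receptor gene Nr4a1 (0.959). Csf3 was most like Wfdc18 (0.972), Igf2bp1 (0.970) and Upp1 (0.962), and Osm most like Timp1 (0.937), an inhibitor of matrix metalloproteinases, Trem1 (0.934), an amplifying receptor of myeloid cells, and Fosl2 (0.932), an AP-1 subunit. Csf1 was most like the interferon-induced chemokine gene Cxcl9 (0.974), the NADPH oxidase gene Nox1 (0.974) and Zfp800 (0.971). Lif was most like Il23a (0.963), Inhba (0.938) and Ccl17 (0.927), and Il11 most like Dgat2l6 (0.865), Abcg8 (0.856) and Slc25a41 (0.840), none of which was called in any comparison.

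Among the members themselves, Lif and Csf2 had r = 0.921, Osm and Csf3 0.909, and Csf2 and Csf3 0.903. Il6 and Csf1, which rose in both genotypes, had r = 0.924. Csf1 and Osm had r = 0.27.

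Other ligands of the family include both subunits of interleukin-27. The list of 7 measured ligand genes also held Il3 and Il34, a ligand of the Csf1 receptor, which are not of this family. Of the 7, 4 rose with LPS in wild type and 3 in KO, and 2 were lower in KO cells with LPS (medians 0.51, 0.41 and -0.07). Il34 was among those that rose in both genotypes (0.51 and 0.41; limma, adjusted p = 0.0014 and 0.00946). Il27, the cytokine subunit p28, rose by 2.97 in wild type and 2.28 in KO (limma, adjusted p = 1.75e-10 and 8.01e-09). It was lower in KO cells with LPS by -0.73 (limma, adjusted p = 0.0228; -0.50 and adjusted p = 0.206 with a sex term), and leaving out WTSTIM array 1 or 2 or KOSTIM array 1 or 3 ended that call (adjusted p = 0.0563 to 0.0992). Ebi3, its partner subunit, rose by 1.91 and 2.26 and did not differ between genotypes with LPS by the test (-0.17, adjusted p = 0.756). Without LPS Ebi3 was lower in KO cells by -0.52 (limma, adjusted p = 0.0372), a call that ended with a sex term (-0.40, adjusted p = 0.161) and without KO array 1 or 3 or any 1 WT array (adjusted p = 0.0568 to 0.142). Clcf1, a gp130 cytokine acting on B cells, rose by 1.50 in wild type (limma, adjusted p = 3.55e-06), against 0.50 in KO (adjusted p = 0.0572). With LPS Clcf1 was lower in KO cells by -0.90 (limma, adjusted p = 0.00944), and its difference in response, -0.99, was not called (adjusted p = 0.077) but was with the replicate block (adjusted p = 0.0172).

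Receptor genes of the family and of the colony-stimulating factors went both ways with LPS. Of 9 measured receptor genes 2 rose and 4 fell in wild type, 1 rose and 3 fell in KO, and 2 were higher in KO cells with LPS. Lifr fell in wild type and KO (-2.62 and -1.71 on the log2 scale), as did Il6ra (-2.29 and -1.80) and Il6st (-1.67 and -1.13; limma, adjusted p from 6.95e-12 to 3.58e-05). Il6st was less reduced in KO cells: with LPS it was higher there by 0.54 (limma, adjusted p = 0.00069), and the response differed by 0.54 (limma, adjusted p = 0.0224). The latter call ended without WTSTIM array 2 (0.0624), KOSTIM array 1 (0.0553) or KOSTIM array 2 (0.0511). Il6ra was higher by 0.45 (limma, adjusted p = 0.0192), a call that ended with a sex term (0.40, adjusted p = 0.11) and without WTSTIM array 2 or 3 or KOSTIM array 1 or 2 (adjusted p = 0.057 to 0.0737).

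The receptor of Csf3 is the product of Csf3r. Csf3r rose by 0.77 in wild type and 0.56 in KO (limma, adjusted p = 8.72e-05 and 0.00252). Csf2rb, the signalling chain for GM-CSF, rose by 0.58 in wild type (limma, adjusted p = 0.000176), against 0.27 in KO (adjusted p = 0.0659). Csf1r, the receptor of Csf1, fell by 0.49 in wild type (limma, adjusted p = 8.93e-05), against -0.17 in KO (adjusted p = 0.16). For neither was the difference in response called (Csf2rb -0.31, adjusted p = 0.463, and Csf1r 0.32, adjusted p = 0.248).

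In the JAK-STAT relay 7 of 9 measured genes rose with LPS in wild type, 6 rose and 1 fell in KO, and 2 were lower in KO cells with LPS (medians 0.51, 0.40 and -0.23). Jak2 rose by 2.88 and 2.52 and was lower in KO cells with LPS by -0.54 (limma, adjusted p = 0.01; 0.0514 without WTSTIM array 2). Stat5a, which relays signals of GM-CSF, was lower by -0.54 (limma, adjusted p = 0.0233), a call that ended with a sex term (-0.53, adjusted p = 0.0937) and without WTSTIM array 2 or KOSTIM array 1 or 3 (adjusted p = 0.0535 to 0.0755). Stat3 rose by 0.53 and 0.38, and its genotype difference with LPS, -0.24, was not called (adjusted p = 0.30).

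Of 10 feedback and target genes of STAT signalling, 7 rose in wild type, 5 rose and 1 fell in KO, and Cish and Timp1 were lower in KO cells with LPS (medians 1.29, 0.56 and -0.41). Socs3, the main brake on gp130, rose by 3.70 and 3.19 (limma, adjusted p = 8.9e-11 and 9.26e-10), and its genotype difference with LPS, -0.64, was not called (adjusted p = 0.112; 0.0403 with the replicate block). Cish rose by 1.81 in wild type (limma, adjusted p = 6.67e-07) against 0.41 in KO (adjusted p = 0.155). Cish was lower in KO cells with LPS by -1.38 (limma, adjusted p = 0.0005), and its response differed by -1.40 (limma, adjusted p = 0.0179). Timp1 rose by 1.77 in wild type (limma, adjusted p = 4.2e-05) against 0.33 in KO (adjusted p = 0.494), and with LPS it was lower in KO cells by -1.63 (limma, adjusted p = 0.00178). Its difference in response, -1.44, was not called (adjusted p = 0.0798) but was with the replicate block (adjusted p = 0.0431).

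**Figure D5:**
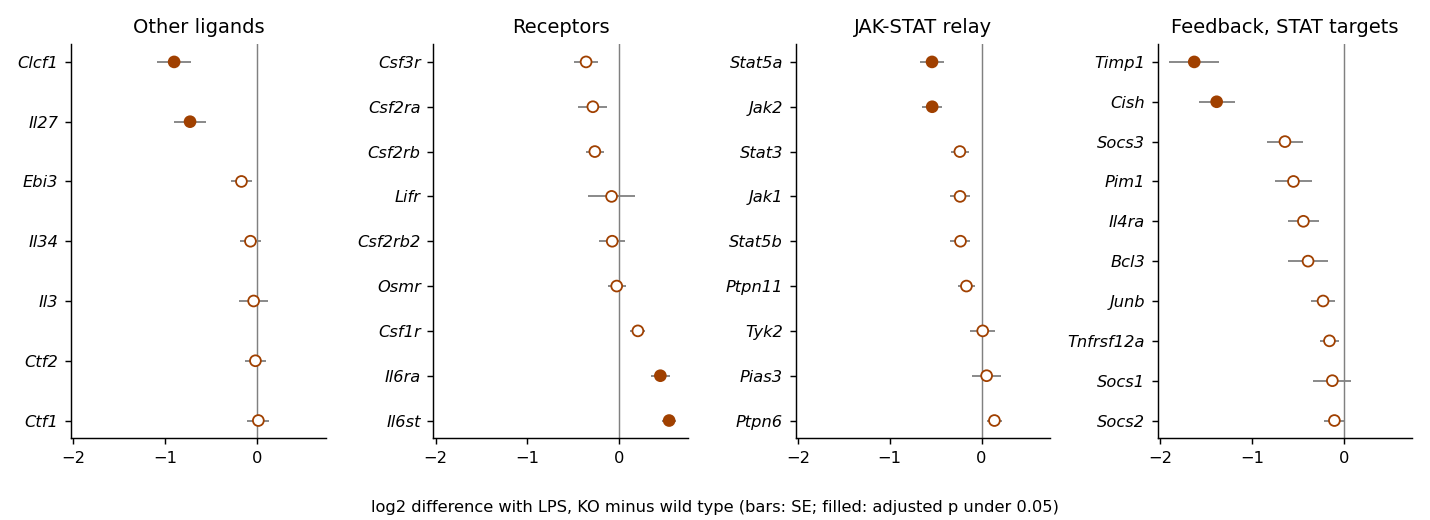
Difference between KO and wild type with LPS (log2) for measured genes of 4 groups: other ligands, receptors, the JAK-STAT relay, and feedback and STAT target genes. Points are differences of group means (n = 4 against 4), bars are standard errors from limma, and filled points have an adjusted p under 0.05. Il6st and Il6ra lie to the right at 0.54 and 0.45, while Cish and Timp1 lie farthest to the left at -1.38 and -1.63.

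Regulators that act on the transcription or decay of these cytokine mRNAs included NF-kB, C/EBP and AP-1 subunits and RNA-binding proteins. Of 16 measured genes 10 rose and 2 fell with LPS in wild type, 10 rose and 3 fell in KO, and 1 was lower in KO cells with LPS (medians 0.92, 1.01 and -0.12). Nfkbiz, the cofactor IkB-zeta needed for full Il6 transcription, rose by 2.20 and 2.87, Nfkb2 by 2.12 and 2.03 and Cebpd by 1.66 and 2.18 (limma, adjusted p from 2.5e-11 to 1.82e-08). Batf rose by 2.74 and 2.20. Zc3h12a encodes regnase-1, an RNase that degrades Il6 mRNA, and it was lower in KO cells with LPS by -0.67 (limma, adjusted p = 0.000856). Without LPS Nfkbiz was lower in KO cells by -0.77 (limma, adjusted p = 0.015), a call that ended with a sex term (-0.69, adjusted p = 0.087) and without WT array 2 (-0.63, adjusted p = 0.0629). In arrays with Xist above Kdm5d, with 1 array in each KO group, no gene of these 5 groups kept its call between genotypes. With sex term and replicate block the calls with LPS of Clcf1 (-0.51, adjusted p = 0.274), Il27 (-0.30, adjusted p = 0.639), Il6st (0.46, adjusted p = 0.128), Il6ra (0.40, adjusted p = 0.335), Stat5a (-0.49, adjusted p = 0.31), Cish (-0.98, adjusted p = 0.0952) and Timp1 (-1.44, adjusted p = 0.129) ended, and those of Jak2 and Zc3h12a did not.

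Of the 10 macrophage markers, 1 rose and 4 fell with LPS in wild type, and 3 rose and 2 fell in KO. Mertk, a receptor for dying cells, fell with LPS (-1.62 in wild type and -1.15 in KO; limma, adjusted p = 2.08e-07 and 1.87e-05). It was higher in KO cells with LPS by 0.79 (limma, adjusted p = 0.00891; 0.67 and adjusted p = 0.0915 with a sex term, 0.36 and adjusted p = 0.509 with sex term and replicate block). C1qa, a complement subunit, was lower in KO cells without LPS by -0.63 (limma, adjusted p = 0.0145), a call that ended with a sex term (-0.50, adjusted p = 0.106) and without WT array 1 (0.0593) or 2 (0.0509). Of the dendritic cell markers Itgax rose by 2.56 in wild type and 1.73 in KO, and it was lower in KO cells with LPS by -1.83 (limma, adjusted p = 0.0229). That call ended with a sex term (-1.01, adjusted p = 0.268), in arrays with Xist above Kdm5d (-1.05, adjusted p = 0.23), with a trended robust variance (adjusted p = 0.0635) and without WTSTIM array 2 (-1.62, adjusted p = 0.10) or KOSTIM array 3 (-1.85, adjusted p = 0.0569). Of the stromal markers Pdgfrb rose by 3.88 and 3.16 and was lower by -0.90 (limma, adjusted p = 0.0017; -1.02 and adjusted p = 0.0821 in arrays with Xist above Kdm5d). The other genes of the dendritic and stromal lists were not called between genotypes with LPS, and 0 of 9 neutrophil and 0 of 8 lymphocyte and mast cell markers were (2 and 0 at an unadjusted p under 0.05). Their part in the cytokine differences was not tested.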

How the data were processed

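RNA of 16 samples was measured on 1-channel Affymetrix arrays. The deposited values are log2 levels per probe set, made by the authors with RMA per the submitters' processing notes, with no version. RMA subtracts background and forces all arrays to one distribution, which removes any change that all genes share. Of 34760 probe sets, 21640 had 1 gene in the platform annotation, 1321 had several and 11799 had none, and the brightest probe set over all arrays stood for each of 19937 genes. All 16 arrays entered one linear model of the 4 group means, with no covariate (limma 3.58.1 under R 4.3.3, lmFit then eBayes), leaving 12 residual degrees of freedom. Adjusted p are by Benjamini-Hochberg over the 19937 genes, and one under 0.05 made a call. The script was tested on simulated data. The 7 genes and all gene lists were chosen with earlier results of these data known. Named genes were the 7, Nfat5, up to 4 genes of smallest p per list and comparison, with some left out, and for each of the 7 the 3 other named genes with the highest r. Of the lists, 7 of 9 other ligands, 9 of 10 receptors, 9 of 10 relay genes, 10 of 10 feedback genes and 16 of 17 regulators were measured. Motifs were searched in RefSeq promoter windows of GRCm38.p6; the sources used here do not give the build behind the probe annotation.

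The titles of the samples carry replicate numbers. For KO and wild-type arrays with the same number, the correlation of deviations from the group mean was 0.16 to 0.44 (unstimulated) and 0.19 to 0.52 (LPS), above the limit of 0.1, so the numbers paired the arrays between genotypes. Between LPS and unstimulated arrays, numbers 2 to 4 gave 0.25 to 0.43 in wild type and 0.14 to 0.56 in KO, also above the limit. Number 1 gave 0.05 in wild type and -0.06 in KO. Because number 1 stayed under the limit, LPS and unstimulated arrays were not treated as paired. Alternatives were other scalings, a stricter filter, the replicate block, fewer arrays, a sex term, another variance model and leaving out each array. No arrays were duplicates: differences within a group had an SD of 0.235 to 0.546. The number of arrays limits the precision.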

Additional observations from a re-analysis of the deposited data

Results flagged for a closer look

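The LPS response differed between genotypes, by the test of that difference in limma, for 4 of the 7 genes: by -1.71 for Il6, -1.21 for Osm, -1.67 for Csf2 and -1.43 for Csf3 (KO minus wild type, log2). Of these, Il6 and Osm kept the call whichever array was left out. Among the unstimulated wild-type arrays, number 2 stood apart from the other 3 for Il6, at 3.86. Chance sets 1 array apart in this way in about 1 of 20 groups, and the other 27 combinations of the 7 genes and 4 groups showed none.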

How the results depend on the processing

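No result changed sign where it was called. The 6 genes raised by LPS in wild-type cells stayed called in every alternative that tested them. In KO cells 4 of the 7 were called with only the 8 arrays compared and the replicate block, an alternative chosen after seeing the data, as was the sex term with replicate block. With the latter 2 of the 7 differed between genotypes with LPS, where Csf2 was at -1.05 (adjusted p = 0.295) and Csf3 at -0.92 (adjusted p = 0.238). In arrays with Xist above Kdm5d, 2 differed with LPS (Il6 lower, Csf1 higher) and 0 in response, with 1 array in each KO group. Leaving out each array gave 2 to 4 of 7 for the difference in response, 4 to 5 between genotypes with LPS, and 2 to 3 for LPS in KO. The replicate block, used because the arrays were paired between genotypes, changed no call of the 7 genes. For Csf2 the difference in response was also not called with median centring (adjusted p = 0.0554), quantile normalisation (0.0832), numbers 1 to 3 alone (0.053) or a trended robust variance (0.085).

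Over all genes, 200 were called between genotypes without LPS, against 327 with the replicate block, 91 in the 8 arrays compared, 359 with a sex term, 84 with sex term and block and 58 in arrays with Xist above Kdm5d. With LPS 609 were called, against 950 with the block, 1149 in the 8 arrays with the block, 142 with sex term and block and 89 in the Xist arrays. For the difference in response 257 were called, against 451 with the block, 153 for numbers 1 to 3, 469 with sex term and block and 4 in the Xist arrays. For LPS in KO 4919 were called, against 1962 in the Xist arrays. Leaving out each array gave 116 to 209 without LPS (lower by over 1.5 times without WT 1, WT 2 or KO 1), 308 to 659 with LPS (lowest without WTSTIM 2 and KOSTIM 1) and 133 to 271 for the difference in response (lower by over 1.5 times without WT 2, WTSTIM 2, KO 1, KOSTIM 1, 2 or 3). The stricter filter on dim genes kept 10726 genes and 4 of the 7 (Il6, Osm, Csf1 and Csf3). Low signal limits Il6 without LPS, Csf3 outside WTSTIM, and Csf2, Lif and Il11 throughout, since RMA compresses changes of dim probe sets. No group mean of Csf2, Lif or Il11 exceeded 7.09, the median level of all values. Csf3 also averaged less than that in WT (6.35), KO (6.36) and KOSTIM (6.72).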

Other observations

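Neighbouring genes were also read, by their order in RefSeq. Lif and Osm lie next to each other, and the gene on the other side of Osm, Castor1, a sensor of arginine, fell with LPS by 0.63 in wild type and by 0.52 in KO on the log2 scale (limma, adjusted p = 0.000578 and 0.00396). Il3, the neighbour of Csf2, was not called with LPS in wild type (-0.28, adjusted p = 0.204) or in KO (-0.02, adjusted p = 0.963). Psmd3 and Med24 flank Csf3. Psmd3, a proteasome subunit gene, rose by 0.42 and 0.46 (limma, adjusted p = 0.00199 and 0.00113), and Med24 was not called (-0.20 and -0.18, adjusted p = 0.221 and 0.337). Tyms, the thymidylate synthase gene beside Il6, rose by 1.17 in wild type (limma, adjusted p = 0.0001), against 0.13 in KO (adjusted p = 0.753). Its difference in response, -1.04, was not called (limma, adjusted p = 0.0775), while with LPS it was lower in KO cells by -0.76 (limma, adjusted p = 0.0403).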
